A study of Mus musculus with 3 samples.

Results

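The cytosolic ribosomal protein genes encode the proteins that, with ribosomal RNA, build the ribosome of the cytoplasm. They were taken as every array probe designed to a RefSeq transcript of a gene named Rpl or Rps with a number, or named Rpsa, Rplp0, Rplp1 or Rplp2. Kinases named Rps6k, pseudogenes and the ribosomal proteins of mitochondria were not members. The rule found 76 genes, 46 of the large subunit (3 of them stalk proteins) and 30 of the small subunit, on 109 of 41174 probes. It used gene names alone and no measured value. After the filters described below, 60 of these genes were among the 18485 genes and transcripts tested.

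The study asked how cells without SA1, a subunit of the cohesin ring that holds DNA strands together and shapes chromosomes, differ in gene expression from wild type cells. The cells were mouse embryonic fibroblasts, primary connective tissue cells cultured from embryos of stage E12.5, untreated and grown in DMEM with 10% fetal bovine serum. Each of 3 Agilent 2-colour arrays held total RNA of a culture labelled WT in Cy5, a red dye, and of a culture labelled SA1-null in Cy3, a green dye, as biological replicates 1, 2 and 3. No array had the dyes exchanged, and the effects of dye and of genotype therefore cannot be told apart. The labels give no strain, allele or passage, and do not say whether embryos were pooled. In bulk RNA, fewer cells of a type and less RNA per cell cannot be told apart.

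Stag1, the gene that encodes SA1, went against the labels. Its log2 ratio of Cy3 over Cy5 was 3.34, 3.74 and 3.47 on the 3 arrays, an 11.4-fold excess in the Cy3 channel, labelled SA1-null (3.52 ± 0.21, SD, n = 3, limma adjusted p = 0.0273). That value is of its brightest probe. Its other kept probes were at 3.53, 2.17 and, for the dimmest, 0.59, and their mean with the brightest was 2.45. All ratios here are Cy3, labelled SA1-null, over Cy5, labelled wild type, and every sign turns if the channel labels are exchanged. The log2 values deposited for the series run the other way, Cy5 over Cy3. Of 12 fibroblast markers, 10 were well above background in both dyes on all 3 arrays. Of 21 macrophage and blood cell markers, 20 were tested, and all 20 were well above background in both channels and lower in the channel labelled SA1-null on every array. Their median was -2.88, and 14 of them passed the limma test, against 0.314% of all genes. With median centring 8 passed, against 0.184% of all genes. After background correction and loess, their signals summed to 8425 to 59030 in Cy3, beside 73240 to 641000 in Cy5. The part of this difference in marker signal in the ribosomal protein values was not tested.

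A ribosome has a large subunit, which joins amino acids, and a small subunit, which reads the messenger RNA. Each ribosomal protein is needed in about the same number per ribosome, and cells tie their output together. The messenger RNAs begin with a run of pyrimidines, the terminal oligopyrimidine (TOP) motif, through which the kinase mTOR sets their translation. Some ribosomal proteins that are not built into ribosomes also act elsewhere: Rpl5 and Rpl11, free of the ribosome, bind Mdm2 and so stabilise p53.

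No ribosomal protein gene passed the test between the channels. In the limma fit across all genes, 0 of 60 members had an adjusted p under 0.05, against 58 of 18485 genes (0.314%; 0.0108% called higher and 0.303% called lower). The smallest adjusted p of a member was 0.444, for Rpl5. Without adjustment, 3 of 60 members (Rpl5, Rpl10a and Rpsa) had a p under 0.05, against 7.49% of all genes. With 3 arrays, a two-sided sign-flip permutation test cannot go below 0.25, so no such test was made. A p that misses the threshold does not show that the channels held equal amounts, and the number of arrays limits the precision.

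After loess, which removes the trend of the ratio with brightness on each array, the members sat close to 0, as did all genes. The median of the members' mean log2 ratios was 0.11, with the middle 50% between -0.05 and 0.24. For all genes tested it was -0.02, with the middle 50% between -0.21 and 0.14. Of the 60 members, 40 had a mean above 0 (66.7%, against 45.6% of all genes). The arrays differed: the median member was at 0.25 on array 1, -0.09 on array 2 and 0.06 on array 3, with 44, 21 and 34 members above 0. Leaving out array 1 brought the median to 0.02, and leaving out array 2 brought it to 0.21. Weighting each array by how closely it followed the mean of the arrays over all genes turned it to -0.04. These limma array weights were 0.48, 3.09 and 0.67, so array 2 set most of that value. In the deposited values, turned to Cy3 over Cy5, the array medians of the members were 0.37, 0.07 and -0.03. The signs on arrays 2 and 3 thus depended on the processing.

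Only some members had the same sign on every array. There were 12 members above 0 on all 3 arrays (13.3% of all genes were) and 11 below 0 on all 3 (19.1% of all genes). Among the 60 members, the ratios of arrays 1 and 2 had a Pearson correlation of 0.51, those of arrays 1 and 3 of 0.32, and those of arrays 2 and 3 of 0.13. Over all genes the values were 0.37, 0.27 and 0.47. These are descriptions across genes, which share arrays and are not independent. The median SD of a member over the arrays was 0.29, beside 0.32 for all genes.

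The sign of the group depended on the normalization. With median centring, which shifts each array by a single constant and leaves the trend with brightness in place, the median member was at -0.59, with -0.57, -0.75 and -0.50 on the 3 arrays. Then 1 of 60 members was above 0 (19.6% of all genes), and 51 were below 0 on all 3 arrays (39.4% of all genes). None was above 0 on all 3 (4.38% of all genes). No member was called there either (0 of 60, against 0.184% of all genes), although 37 had an unadjusted limma p under 0.05 (18.1% of all genes). All genes together had a median of -0.30 with median centring, so the members stood 0.29 lower than that. This gap was not the same on the arrays: the members were 0.03 below all genes on array 1, 0.40 on array 2 and 0.45 on array 3.

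**Figure D1:**
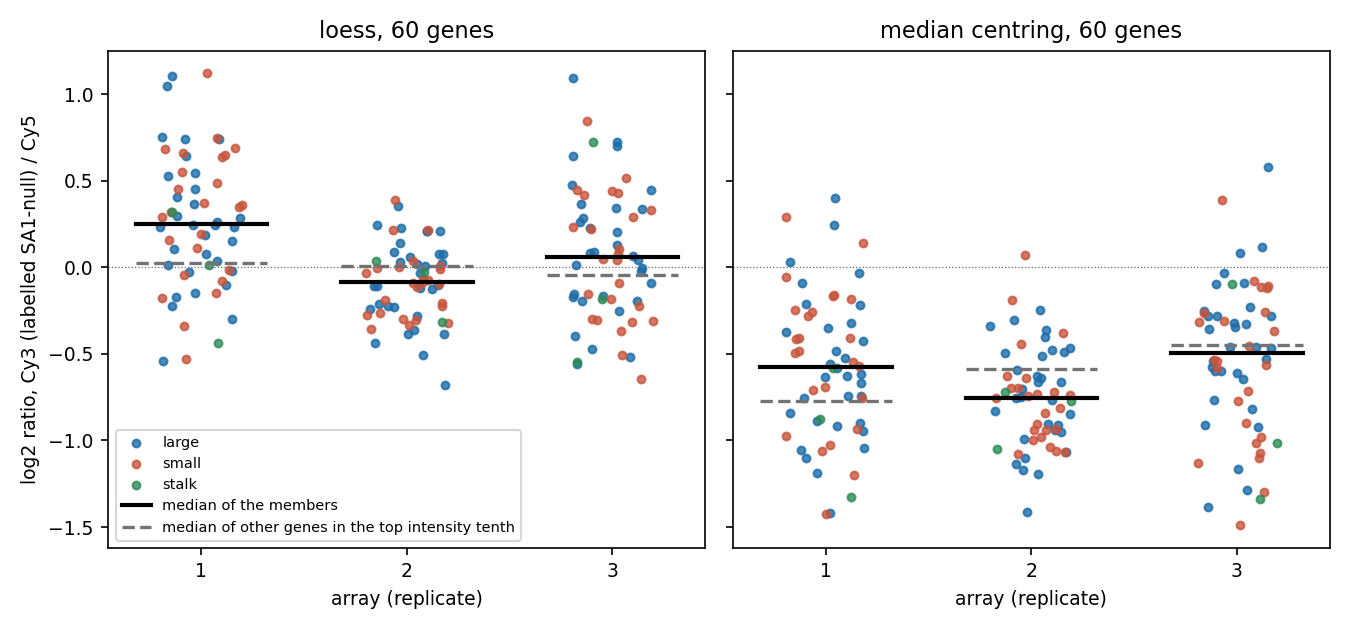
Log2 ratio of Cy3 (labelled SA1-null) over Cy5 for the 60 tested ribosomal protein genes on each of 3 arrays, after loess (left) and after median centring (right). Points are genes, coloured by subunit, solid lines mark their median (0.25, -0.09 and 0.06 after loess; -0.57, -0.75 and -0.50 after median centring) and dashed lines the median of the other genes in the brightest 10%.

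The members were among the brightest spots of the arrays. Of the 60 tested, 55 lay in the brightest 10% of all genes by mean intensity, and 29 of the 100 brightest genes were members. A probe's brightness also depends on its sequence, so it is used here only to find genes measured under like conditions. The other 1794 genes of that 10% had a median of 0.00 after loess and -0.59 after median centring, the latter at -0.77, -0.59 and -0.45 on the 3 arrays. Of all 1849 genes there, 1356 (73.3%) were below 0 on all 3 arrays with median centring. The median-centred values of all genes ran from 0.06 in the dimmest 10% to -0.59 in the brightest 10%. With median centring, the members and the other bright genes thus had the same median, although the members lie at the bright end of that 10% and differ from the others array by array.

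**Figure D2:**
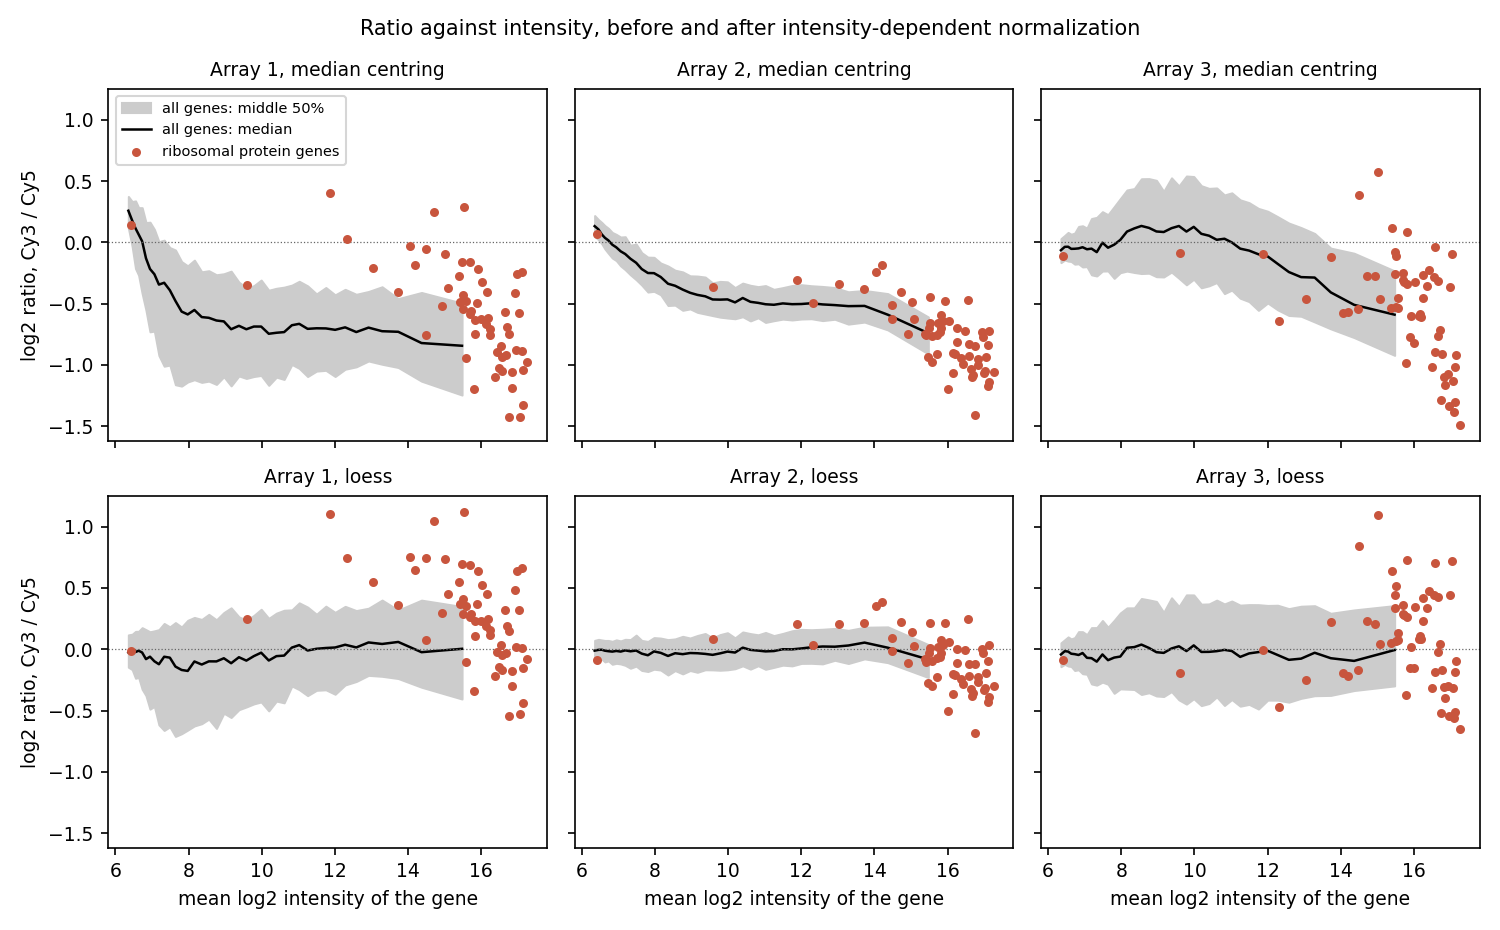
Log2 ratio (Cy3 over Cy5) against mean log2 intensity on each of 3 arrays, with median centring (top) and loess (bottom). The black line is the median and the grey band the middle 50% of all genes in intensity bins, and the points are the 60 ribosomal protein genes. With median centring all genes fall with intensity, to -0.59 in the brightest 10%, and the ribosomal protein genes lie at that end; after loess the line stays near 0.

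Within the group, the brighter members had lower mean ratios after loess, on arrays 1 and 2 but not on array 3. The 29 members among the 100 brightest genes had a median of -0.04, with 13 above 0. The next 20 members, still within the 500 brightest genes, had a median of 0.18, with 17 above 0. The 11 members outside the 500 brightest had a median of 0.27, with 10 above 0. On array 1 the 3 classes were at 0.02, 0.36 and 0.65, on array 2 at -0.22, -0.05 and 0.21, and on array 3 at -0.02, 0.23 and -0.17. With median centring the same classes had medians of -0.80, -0.52 and -0.29. These classes were formed after the data were seen and have no test. Fitting the loess curve without the ribosomal protein spots gave array medians of 0.28, -0.09 and 0.06, close to those with them.

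The scanner read these spots at its second, lower gain. The files mark a spot whose signal comes from a low-gain scan, scaled up to the main scale. This held in both dyes for 87, 85 and 88 of the 109 member spots on the 3 arrays (79.8%, 78.0% and 80.7%), against 1.47%, 1.44% and 1.75% of all spots. No member spot was saturated. After loess, member spots read at low gain in both dyes had medians of 0.23, -0.15 and 0.08. Only 12, 14 and 19 member spots, some of them of the same gene, were read at low gain in neither dye. Their medians were 0.61, 0.08 and -0.14. Other spots read at low gain in both dyes had medians of 0.13, -0.08 and 0.14. The part of the gain in the members' ratios was not tested.

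Before any correction the red channel was the brighter for nearly every member. Over the 109 member spots, several of them of the same gene, the median signal was 42291.7, 45599.7 and 56429.7 in Cy3, against 123132, 109688 and 75443.8 in Cy5. The median uncorrected log2 ratio of the member spots was -1.54, -1.24 and -0.62, beside -1.47, -0.92 and -0.65 for all spots. Cy3 exceeded Cy5 for 0, 0 and 2 of the 60 tested members. The member spots' uncorrected ratio was within 0.1 of that of all spots on arrays 1 and 3 and lower on array 2. Background was not subtracted here, and it weighed far more in a typical spot than in a member spot. On array 3, for example, the all-spot median signals of 70 (Cy3) and 100 (Cy5) stood over backgrounds of 28 and 53.5. This comparison therefore cannot place the members against other genes. After background correction and median centring, members minus all genes came to -0.03, -0.40 and -0.45.

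**Figure D3:**
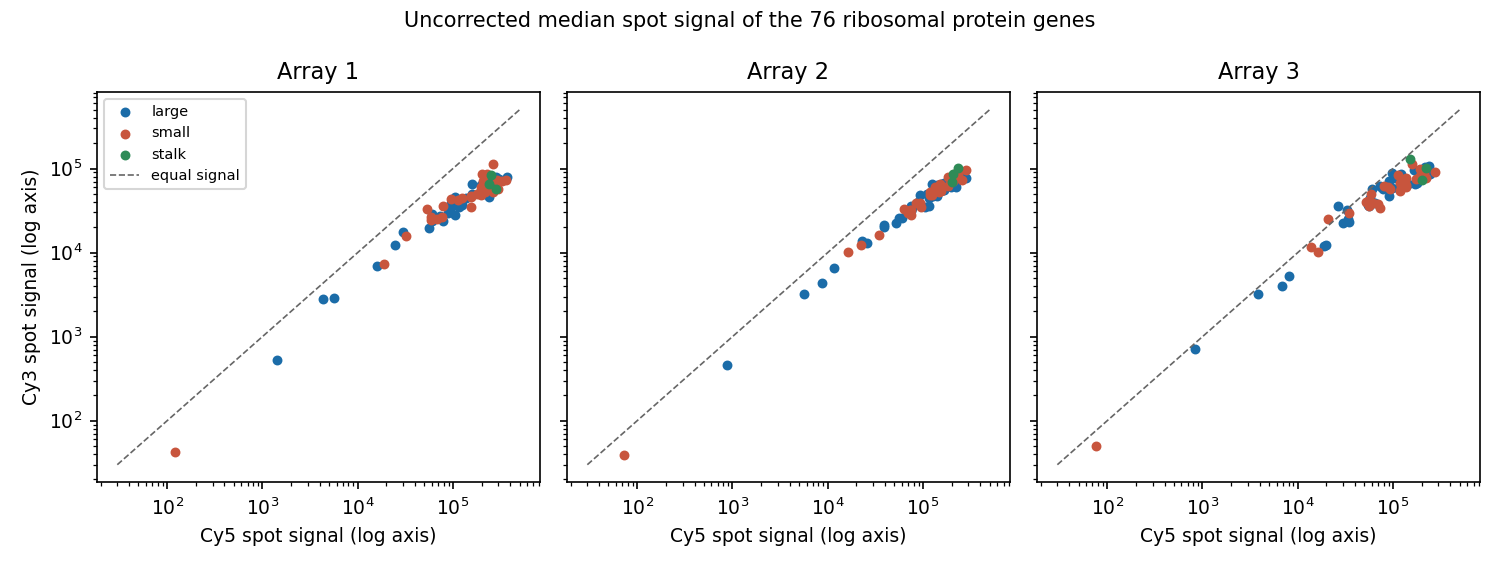
Uncorrected median spot signal in Cy3 (labelled SA1-null) against Cy5 (labelled wild type) for the 76 ribosomal protein genes on each of 3 arrays, both on log axes in scanner units. Each point is the gene's probe, coloured by subunit, and the dashed line marks equal signal; nearly all points lie below it, and Cy3 exceeds Cy5 for 0, 0 and 2 of the 60 tested genes on the 3 arrays.

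Rpl10a and Rpsa, the tested members with the highest means, were both lowest on array 2. Rpl10a, a protein of the large subunit that forms its mobile side stalk, had log2 ratios of 0.74, 0.14 and 1.09. Its mean was 0.66 ± 0.48 (SD, n = 3), 1.58-fold, with a limma adjusted p of 0.649. Array 2 was the low one, and with median centring the mean was -0.00. Rpsa, the laminin receptor precursor that forms part of the small subunit, had 1.12, 0.22 and 0.52. This gave 0.62 ± 0.46, 1.53-fold, with a limma adjusted p of 0.655, and -0.09 with median centring. A second, dimmer Rpsa probe was at 0.42.

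Rpl4, whose extended loop lines the tunnel through which the new protein leaves, was at 1.05, 0.23 and 0.23, with a mean of 0.50 ± 0.47. Array 1 set that mean. Rpl18 was at 0.53, 0.06 and 0.35 and Rpl36a at 0.64, 0.21 and 0.01. Rps19, the gene most often mutated in Diamond-Blackfan anaemia, an inherited failure of red cell production, was at 0.36, 0.22 and 0.22. Its mean of 0.27 ± 0.08 had one of the smallest spreads, with a limma adjusted p of 0.707. With median centring Rpl4 was at -0.15, Rpl18 at -0.43, Rpl36a at -0.43 and Rps19 at -0.30. Rps15, a protein of the small subunit near the decoding site, had 0.74 and 0.84 on arrays 1 and 3 but -0.01 on array 2. Its mean was 0.53 ± 0.47, and it was named after its values were seen.

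Rpl5 had the lowest mean and was well below 0 on every array, the lowest member on arrays 1 and 2. It had -0.54, -0.68 and -0.52, a mean of -0.58 ± 0.09 (SD, n = 3), 1.49-fold lower in the channel labelled SA1-null. The limma adjusted p was 0.444 and the unadjusted p was 0.0112. Before correction its signal was 45348.2, 59708.4 and 67817.1 in Cy3 and 240429, 222061 and 180407 in Cy5. With median centring it was at -1.42, -1.41 and -1.29, a mean of -1.37 with an adjusted p of 0.120, the smallest there too. It kept its sign under all 17 alternatives run for it, between -0.44 with the deposited values and -1.37. Rpl11, its partner in the particle that carries the smallest ribosomal RNA of the large subunit, was not tested because its spot was marked on array 3. With that spot kept it was at 0.59, -0.02 and -0.26.

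Of the 11 tested members below 0 on every array (19.1% of all genes were), 7 were of the small subunit and 4, with Rpl5, of the large. With spots marked as outliers kept, 8 of each subunit were below 0 on every array. Rps14 had -0.53, -0.19 and -0.32, a mean of -0.35 ± 0.17. It is among the genes lost on the deleted chromosome arm of a human myelodysplastic syndrome. Rps18 had -0.08, -0.30 and -0.65, with a mean of -0.34 ± 0.29, and its other probe was at -0.02. Rpl38, which in mice is needed for the translation of some Hox messenger RNAs, had -0.30, -0.22 and -0.39. Its mean was -0.31 ± 0.09, with a limma adjusted p of 0.703. Rps27a, made as a fusion with ubiquitin, had -0.34, -0.06 and -0.37. Rps3, which lines the entry of the messenger RNA channel, had -0.18, -0.26 and -0.30, a mean of -0.25 ± 0.07. The other Rps3 probe was at 0.41. None of these genes passed the limma test, and all had a lower mean with median centring, from -0.97 for Rps27a to -1.18 for Rps18. In the deposited values, after turning, Rps14, Rps18, Rpl38 and Rps3 were above 0 on array 2, at 0.30, 0.22, 0.14 and 0.08. Rps27a stayed below 0 on every array there. The deposited means ran from -0.24 for Rps27a to -0.04 for Rps14.

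**Figure D4:**
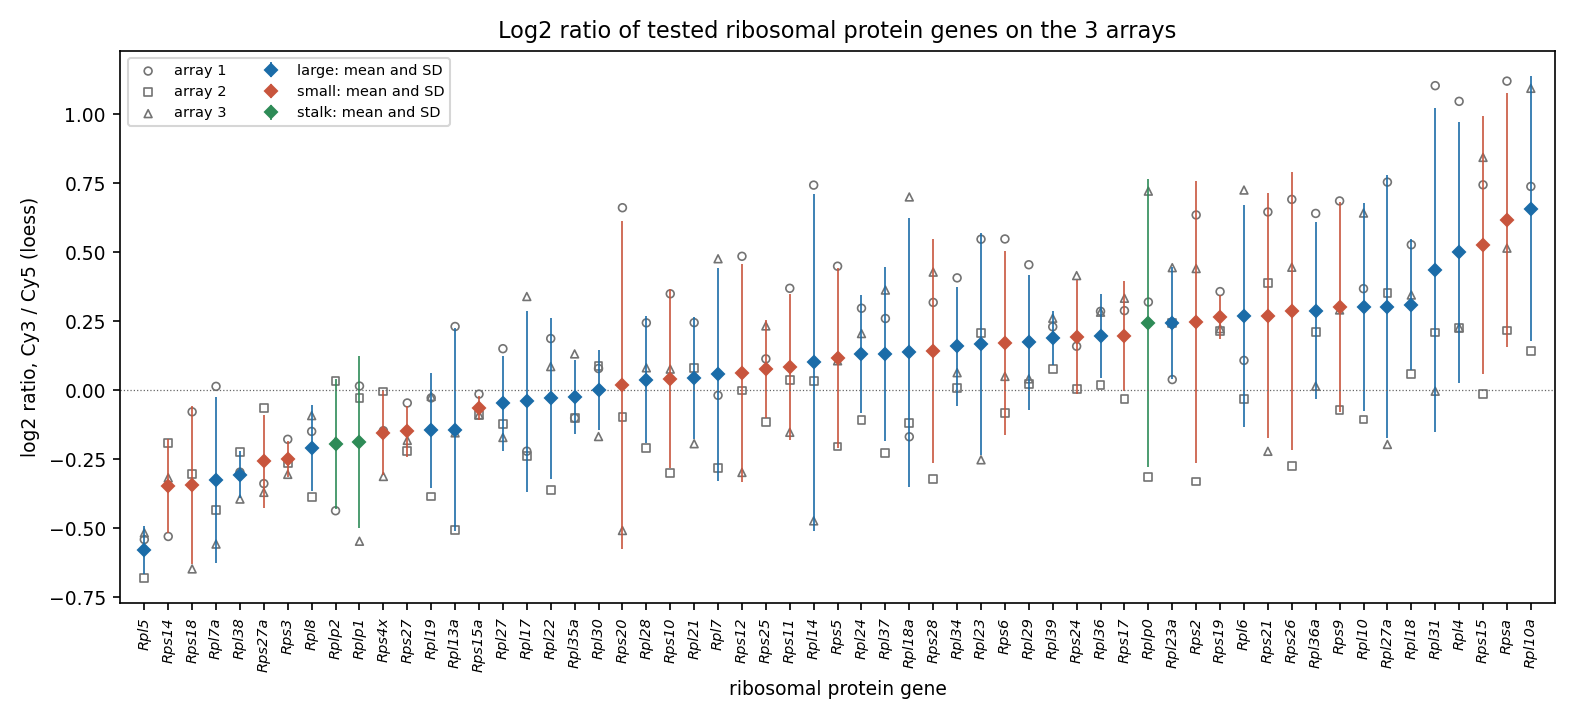
Log2 ratio (Cy3 over Cy5, loess) of 59 of the 60 tested ribosomal protein genes, sorted by mean. Open symbols are the 3 arrays and filled diamonds with bars the mean and SD over them, coloured by subunit; means run from -0.58 (Rpl5) to 0.66 (Rpl10a), and most bars cross 0, while with median centring 1 of the 60 means is above 0.

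The promoter ends of members from both extremes are shown because these genes are transcribed and translated as a set through short shared sequences. Each stretch runs 5′ to 3′ from 60 bases before to 15 bases after the start of transcription that RefSeq lists on GRCm38.p6. The members shown are, among those with 1 sign on all 3 arrays, the 3 with the smallest p on each side that have a listed promoter, leaving out Rps14. Capitals mark matches to CTTTC, letters found in some pyrimidine runs, or to CCGGAAG, the core bound by ETS factors, searched on both strands. A pyrimidine run without CTTTC, as across the listed start of Rps18, is not marked or counted. The stretches lie at chr17:28328411-28328485 (plus strand) for Rpl10a, chr9:120127706-120127780 (plus) for Rpsa and chr9:64173327-64173401 (plus) for Rpl4. Those below 0 lie at chr5:107900468-107900542 (plus) for Rpl5, chr11:114668520-114668594 (plus) for Rpl38 and chr17:33955651-33955725 (minus) for Rps18.
Rpl10a: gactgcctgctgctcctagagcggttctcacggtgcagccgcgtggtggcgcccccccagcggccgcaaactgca
Rpsa: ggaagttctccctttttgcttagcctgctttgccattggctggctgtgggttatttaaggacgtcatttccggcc
Rpl4: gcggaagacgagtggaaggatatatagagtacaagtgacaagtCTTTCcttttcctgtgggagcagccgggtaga
Rpl5: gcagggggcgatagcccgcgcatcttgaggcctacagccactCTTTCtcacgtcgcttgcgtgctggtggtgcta
Rpl38: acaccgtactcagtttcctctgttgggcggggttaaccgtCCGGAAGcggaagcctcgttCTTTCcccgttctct
Rps18: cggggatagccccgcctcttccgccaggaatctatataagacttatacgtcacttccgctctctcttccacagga

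Rpl4, the highest of these with a match, and Rpl5, the lowest member, both hold CTTTC shortly before the listed start. Over a window from 60 bases before to 50 bases after the start, CTTTC on either strand was present in 59.1% of the 66 promoters listed for 56 members. It was present in 25.2% of 32851 promoters of all genes. On the gene's own strand it was present in 35 of the 66 and in 13.8% of all. CCGGAAG was present in 19.7% of the members' promoters and 5.6% of all. The motifs were counted separately, and a promoter can hold both. The 25 tested members with CTTTC on the gene's strand had a median log2 ratio of 0.13, and the 18 with a listed promoter and no match had 0.15. With or without these letters the members spanned similar ranges, -0.58 to 0.66 and -0.34 to 0.53. The match counted for Rpl10a lies outside the stretch printed. A match is a description of letters, not of a site in use.

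Large and small subunit members had similar medians. The 35 tested large subunit genes had a median of 0.13, with 23 above 0, and the 25 small subunit genes 0.09, with 17 above 0. With median centring both medians were below 0, at -0.57 and -0.63. Of the large subunit genes, 9 were above 0 and 4 below 0 on all 3 arrays, and of the small subunit genes 3 and 7. With spots marked as outliers kept, these counts were 9 and 8 of 46 large and 5 and 8 of 30 small subunit genes. The difference between the subunits was not tested. The stalk proteins Rplp0, Rplp1 and Rplp2, which recruit elongation factors to the ribosome, had means of 0.24 ± 0.52, -0.19 ± 0.31 and -0.20 ± 0.24. Rplp0, often used as a reference gene in PCR, was at 0.32, -0.31 and 0.72, a range that crosses 0.

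Groups of members by their place in the ribosome were equally mixed. Of 8 genes whose proteins line the exit tunnel, 6 were tested, with a median of 0.22 and 4 above 0. The 5 tested genes of the small subunit's messenger RNA path had a median of 0.25, with arrays at 0.64, -0.28 and 0.44. For the genes mutated in Diamond-Blackfan anaemia, 14 of 21 were tested, with a median of 0.09 and 9 above 0. The 4 X-linked members, Rpl10, Rpl36a, Rpl39 and Rps4x, had a median of 0.24. All these medians turned below 0 with median centring, from -0.48 to -0.60. No gene of these groups was called.

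The least repeatable members had ratios on both sides of 0. Rpl14 was at 0.74, 0.03 and -0.47, an SD of 0.61. Rps20 was at 0.66, -0.10 and -0.51, and Rpl31 at 1.104, 0.21 and -0.00. For each of these 3 genes array 1 was highest and array 3 lowest. Rps6, the substrate of the S6 kinases and a common readout of mTOR activity, was at 0.55, -0.08 and 0.05. Rpl10, which joins the large subunit late, was at 0.37, -0.11 and 0.64. Rpl22, whose loss blocks T cell development, was at 0.19, -0.36 and 0.09. Among the most repeatable were Rps15a (SD 0.04), Rps3, Rps19 and Rpl38. The Rps15a value comes from a probe near background, at 43, 39 and 50 in Cy3, while its brighter probe was marked as uneven. With marked spots kept, the brighter probe was at 0.24 ± 0.15.

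Probes of the same gene often disagreed by as much as the genes differed from 0. Among 20 members with more than 1 kept probe, 8 had probes on both sides of 0 (40%), against 1469 of 4486 genes (32.7%). The median distance between a member's outermost probes was 0.17, and 0.18 for all genes. Rps3 had -0.25 at its brightest probe and 0.41 at the other. Rpl7 had probes at 0.06, -0.20 and 0.48, and Rpl7a at -0.33, 0.27 and 0.22. Rpl19 had -0.15 and 0.23. In Rps3, Rpl7a and Rpl19 the brightest probe was the lowest. Ribosomal protein genes have many near-identical processed copies in the genome, and which transcripts each probe also binds was not tested.

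**Figure D5:**
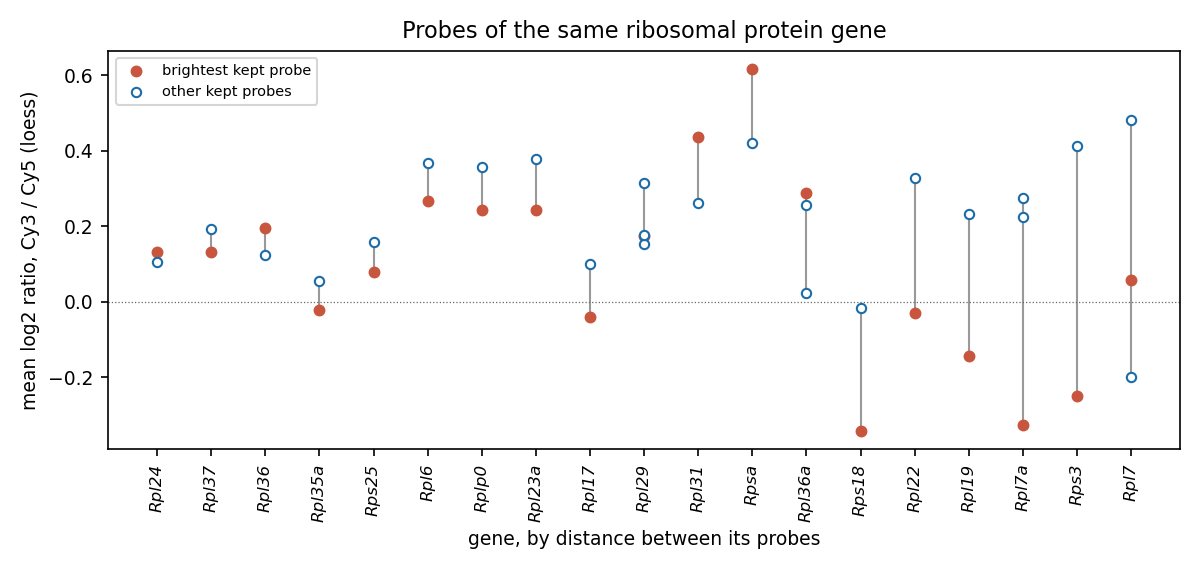
Mean log2 ratio (Cy3 over Cy5, loess) of each kept probe for 19 of the 20 ribosomal protein genes with several kept probes, sorted by the distance between a gene's outermost probes. Filled points are the brightest probe and open points the others; 7 of the genes plotted have probes on both sides of 0, and Rpl7, Rps3 and Rpl7a have probes over 0.5 apart.

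The genes left out were among the brightest members. On array 3 the software marked 23 of 109 member spots as outliers for uneven pixels (21.1%), against 207 of all spots (0.477%), and on arrays 1 and 2 it marked 0 and 2. The 16 members whose every probe was marked were Rpl3, Rpl9, Rpl11, Rpl12, Rpl13, Rpl15, Rpl26, Rpl32, Rpl35, Rpl37a, Rpl41, Rps7, Rps13, Rps16, Rps23 and Rps29. Their median signal on array 3 was 68819.5 in Cy3 and 136303 in Cy5, beside 51641.7 and 75546.85 for the tested members. None of the 109 probes was lost to the filter on dim probes. A further 7 members were tested at a less bright probe for the same reason, among them Rpl23, Rpl34, Rps2, Rps15a, Rps21 and Rps28.

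With marked spots kept, all 76 members had a value and the group moved closer to 0. The median was 0.04 after loess, with 43 of 76 above 0 (8448 of all 18545 genes). After median centring it was -0.70, with 0 above 0 (3625 of all genes). Again 0 were called in limma, against 59 of the 18545 genes. An unadjusted limma p under 0.05 was found for 4 of the 76, against 1390 of all genes. The 16 restored members had a median of -0.14, with 5 above 0. Among them Rps23, which sits at the decoding centre, was at -0.38, -0.57 and -0.60, a mean of -0.52 ± 0.11 with a limma adjusted p of 0.535. Rpl37a was at -0.33 ± 0.04 and Rpl41, the smallest protein of the ribosome, at -0.34 ± 0.26. Rpl13 was the only one of the 16 above 0 on all 3 arrays, at 0.25 ± 0.17.

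Genes that share the ribosomal proteins' regulation or purpose also lay near 0 in the median, with no calls. Of 17 genes with TOP messenger RNAs or roles in elongation, 16 were tested, with a median of 0.15 and 12 above 0, turning to -0.53 with median centring. Eef2, the factor that moves the ribosome along the messenger RNA, was at 0.52, -0.05 and 1.03, with a mean of 0.50 ± 0.54. Eif4b, which helps unwind messenger RNA for initiation, was at 0.52 ± 0.38, and Rack1, a scaffold protein on the small subunit, at -0.40 ± 0.39. Fau, which encodes a ribosomal protein behind a ubiquitin-like protein, was at -0.48, -0.21 and -0.08, a mean of -0.26 ± 0.20. It was below 0 on all 3 arrays, as was the member Rps27a. Of 9 relatives of ribosomal proteins, 5 were tested, with a median of -0.09; Rpl22l1, the paralog of Rpl22, was at 0.42 ± 0.42.

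The mitochondrial ribosomal protein genes, which serve a separate ribosome, had 76 of 78 genes tested. Their median was -0.00, with 36 above 0, and -0.51 with median centring. Mrps15 was at 0.44 ± 0.23 and Mrpl16 at -0.40 ± 0.42. The 19 tested factors of ribosome assembly had a median of 0.14, with 15 above 0, and -0.33 with median centring. Among them Heatr3, an adaptor for Rpl5 in the assembly of the large subunit, was at 0.66, 0.22 and 0.94, a mean of 0.61 ± 0.36 with a limma adjusted p of 0.602. The 8 tested genes of mTOR signalling and p53 had a median of 0.16, with 7 above 0, and -0.12 with median centring. Among them Eif4ebp1, a translation repressor that mTOR inactivates, was at 1.23, 0.46 and 0.67. Its mean was 0.79 ± 0.40, with a limma adjusted p of 0.468. Trp53, which encodes p53, was at 0.63, 0.17 and 1.69, a mean of 0.83 ± 0.78. Both were above 0 on all 3 arrays, and neither passed the test. Mdm2 and Cdkn1a of the same list were at -0.13 ± 0.64 and 0.05 ± 1.16.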

How the data were processed

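Files of 3 Agilent 2-colour arrays were read. Per the file headers, Agilent Feature Extraction (10.1.1.1 for replicate 1, 10.7.3.1 for replicates 2 and 3) made the deposited spot and background intensity values from scans at 2 gains. The deposited processed signals and the log10 ratio are its own corrected values. The authors' deposited log2 ratios were made with limma, per the submitters' processing notes; the sources used here do not give their correction steps. After turning, they correlated with the computed ratios at 0.985, 0.982 and 0.996.

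Here, median signals were corrected with normexp (offset 50) and normalized by loess in limma 3.58.1 (R 4.3.3). Control spots and spots marked as outliers had weight 0 and were then left out. Probes well above background in the same channel on all 3 arrays were kept (24015), with the brightest probe per gene (18485). Ratios were tested against 0 with lmFit and eBayes, with Benjamini-Hochberg adjustment at 0.05. The fit was also run on simulated ratios with independent noise for each gene and no effect of array, slide or dye. That run therefore cannot show how such effects act on the calls here. Names came from RefSeq accessions without versions, which matched 23374 probes, and 12025 of the genes tested have a symbol. Members and lists were chosen with earlier results of these data known. Named are Stag1, in each direction the 6 members of smallest p with 1 sign on all arrays, the 5 with probes farthest apart, the 4 of largest and smallest SD, members left out, members with a known special role, and the 3 of smallest p in each related list. Replicates are biological, per the labels. Alternatives covered background correction, normalization, filters, marked spots, probes, variance model, array weights, slide and replicates. Some genes that this rule names are not reported here, and the plots of single genes leave them out.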

Additional observations from a re-analysis of the deposited data

How the results depend on the processing

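The count of all genes called, 58, was 118 with no background subtraction, 265 with offset 0, 325 with processed signals, 34 with median centring, 92 with both channels above background, 142 with a trended robust variance, 185 with array weights, 1770 with slide as a fixed term and 132 at a threshold of 0.1. In limma it was 0 after scaling between arrays (1868 genes at an unadjusted p under 0.05) and 0 with no filter on dim probes (1980). Leaving out 1 array gave 0 to 284 (284 without replicate 1, and 0 without replicate 2 or 3, with 1295 and 737 genes at an unadjusted p under 0.05). Why these counts differ was not tested.

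No ribosomal protein gene was called under these alternatives, except 1 of 60 with slide as a fixed term, Rpsa at 0.74. In that fit, where slide 1 held only replicate 1, 1770 of 18485 genes were called. The ribosomal protein median stayed above 0 in 17 of 19 alternatives. It was -0.59 with median centring, with -0.57 for the large and -0.63 for the small subunit and 1 member above 0, and -0.04 with array weights, in which array 2 had weight 3.09 and arrays 1 and 3 had 0.48 and 0.67. Leaving out 1 array gave 0.02 to 0.21 for all members, 0.04 to 0.23 for the large subunit, -0.05 to 0.21 for the small subunit, and 31 to 44 members above 0. Of 26 named members tested, 14 changed sign with median centring and at most 5 under any other alternative. Stag1 kept its direction throughout but missed the limma threshold after scaling (3.997), with no filter (3.52) and without replicate 2 (3.40) or 3 (3.54). The slide term was set with replicate 1 on slide 1 and the others on slide 2, a split that the sample titles do not give. The version of the extraction software divides the replicates in the same way, so slide and version cannot be told apart. A random slide effect had no estimate. The test used was already paired, because each array pairs 1 culture of each label and the ratio is the paired value. For dim members such as Rps15a, the signal over background limits the ratio.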

Other observations

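Some markers of other cell types stood far from 0 on 1 array only, beside the ribosomal protein values of that array. Sox2 and Nes, genes of neural progenitors, were at -4.68 and -4.62 on array 1 and between -0.09 and 0.21 on arrays 2 and 3. They belong to a neural list of 4 tested genes with a median of -1.08, in which Tubb3 was above 0 on all 3 arrays (0.48, 0.37 and 0.66). Kdr, a receptor of endothelial cells, was at -2.83 on array 1 and at -0.32 and -0.27 on the others, while Emcn, the other tested endothelial marker, was at 1.57, 0.46 and 0.41. Array 1 also had the highest ribosomal protein median after loess (0.25). Krt8 and Krt18, keratins of simple epithelia, were at -1.02 ± 0.42 and -0.75 ± 0.55 and did not pass the limma test (adjusted p = 0.318 and 0.623). The 5 tested epithelial markers had a median of -0.10, with 2 above 0, and Krt5 was at 0.06 ± 0.09. Of 8 erythroid markers only Hbb-y was tested, at 0.05 ± 0.17. The fibroblast markers had a median of 0.71, with 9 of 10 above 0 and none called in limma (4 had an unadjusted p under 0.05); Pdgfrb was at 0.85 ± 0.19 and Col3a1 at 1.17 ± 0.60. With median centring the fibroblast median was 0.09.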
